A study of Homo sapiens with 208 samples.

Results

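Lung lineage transcription factors and the secretory genes they are known to control were followed in PC9, a human lung adenocarcinoma cell line, and in PC9GRM2, a gefitinib-resistant line derived from it. The 10 genes were NKX2-1, FOXA1, FOXA2, GATA6, SFTPB, SFTPC, SFTPD, SCGB1A1, MUC1 and NAPSA, chosen by name and found through the accession of each array probe. All 10 had a probe among the 16961 genes matched on the array, and 8 of them passed the filter on dim genes and were among the 13263 genes tested. NKX2-1 and FOXA2 did not pass and are described separately. For testing, the scanner software had to flag the gene's probe as well above background on 13 or more of the 26 arrays in some course.

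PC9 carries an activating deletion in EGFR and is sensitive to gefitinib, a small-molecule inhibitor of the EGFR tyrosine kinase. PC9GRM2, which the study calls PC9M2, was selected from PC9 by culture under gefitinib, so it stands for 1 resistant line. Both lines were starved for 48 h and then received no treatment, 0.5 uM gefitinib, 100 ng/ml EGF, or EGF and gefitinib together. Gefitinib preceded EGF, so the 0 h array of a gefitinib course was already exposed to the drug. Each of the 8 courses had 26 time points, at 0 and 0.5 h and at every hour from 1 to 24 h, with 1 array at each. The one-colour oligonucleotide arrays gave a fluorescence signal per probe, used here on the log2 scale after quantile normalisation. Time points took the place of replicates (n = 26), so the errors and p-values below describe the spread over time within 1 experiment and treat neighbouring time points as independent.

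In lung development the homeodomain factor NKX2-1, the forkhead factors FOXA1 and FOXA2 and the zinc-finger factor GATA6 act together in foregut endoderm and later in alveolar and airway epithelium. Alveolar type 2 cells make the hydrophobic surfactant proteins SFTPB and SFTPC, the collectin SFTPD, which serves innate defence, and NAPSA, an aspartic protease that processes the SFTPB precursor. SCGB1A1 is the main secretoglobin of airway club cells, and MUC1 is a transmembrane mucin of the apical surface. NKX2-1 and NAPSA are widely used to recognise lung adenocarcinoma.

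A promoter window of each of FOXA1, NAPSA, MUC1 and SFTPD is printed as an example that holds, or lacks, letters that these factors are known to bind. RefSeq on GRCh38.p14 gave a promoter for 7 of the 10 genes, in 11 windows of 250 bases before a start. Both strands were searched for letters of the NKX2-1 core (CTCAAG or its variant CAAGTG), of the FOXA core (TGTTTAC with its variants TGTTTGC and also TATTTAC or else TATTTGC) and of the GATA core (AGATAA or its variant TGATAA). Among 35116 promoters of the same length, 18.3% held an NKX2-1 core, 10.6% a FOXA core and 14.6% a GATA core. Matches are in capitals.
FOXA1, minus strand, chr14:37595250-37595499: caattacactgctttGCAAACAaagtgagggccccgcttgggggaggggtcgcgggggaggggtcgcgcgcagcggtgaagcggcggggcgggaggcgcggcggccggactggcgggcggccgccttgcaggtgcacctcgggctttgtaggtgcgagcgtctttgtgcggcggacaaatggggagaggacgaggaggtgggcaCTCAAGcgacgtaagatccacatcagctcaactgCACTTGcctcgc
NAPSA, minus strand, chr19:50369303-50369552: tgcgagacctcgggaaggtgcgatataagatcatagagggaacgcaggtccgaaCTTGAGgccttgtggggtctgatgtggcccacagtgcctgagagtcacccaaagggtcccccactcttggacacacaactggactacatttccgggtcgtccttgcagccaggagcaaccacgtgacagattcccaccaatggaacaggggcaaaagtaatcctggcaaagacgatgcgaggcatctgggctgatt
MUC1, minus strand, chr1:155192916-155193165: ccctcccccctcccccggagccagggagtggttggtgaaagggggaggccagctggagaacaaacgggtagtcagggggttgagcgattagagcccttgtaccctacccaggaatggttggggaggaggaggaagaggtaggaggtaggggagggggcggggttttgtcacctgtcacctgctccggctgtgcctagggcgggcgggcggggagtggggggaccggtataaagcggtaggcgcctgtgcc
SFTPD, minus strand, chr10:79949106-79949355: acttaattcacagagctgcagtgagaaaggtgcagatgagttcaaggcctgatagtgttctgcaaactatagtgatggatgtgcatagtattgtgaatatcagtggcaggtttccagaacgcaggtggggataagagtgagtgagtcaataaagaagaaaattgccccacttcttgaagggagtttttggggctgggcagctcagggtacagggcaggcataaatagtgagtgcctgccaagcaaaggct
The FOXA1 window held CTCAAG 46 bases before the start, CAAGTG on the reverse strand at 12 bases and TGTTTGC on the reverse strand at 235 bases, and no matched stretch overlapped another. The printed NAPSA window held CTCAAG on the reverse strand at 196 bases. Neither the MUC1 nor the SFTPD window held any of these letters. Of the windows not printed, those of SFTPB and GATA6 and the second windows of NAPSA and MUC1 held none, and the pair of NKX2-1 windows held TGTTTGC at 241 bases in one and CAAGTG at 147, TGTTTAC at 130 and AGATAA on the reverse strand at 100 bases in the other. SFTPC, SCGB1A1 and FOXA2 had no entry. Only these exact letters were searched for, so a window without them was not shown to lack other forms of these cores.

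Every array was within range of the scanner software's quality check, and 24464 to 35938 features per array were well above background. The arrays of the 2 lines shared no slide and no scan day, with 8 scan days for PC9 and 9 for PC9GRM2, so a difference between the lines cannot be told apart from a difference between the scan periods. A slide (52 in all) carried every treatment of a line for a given time point, and treatments were thus matched on the same slide. The untreated PC9GRM2 array at 11 h stood furthest from its neighbours in time, with a departure of 0.671 against course medians of 0.169 to 0.225, followed by the untreated PC9 array at 18 h (0.542), the untreated PC9GRM2 array at 12 h (0.484) and the PC9 gefitinib array at 16 h (0.482). The departure is the median over genes of the distance between an array's log2 value and the mean of the neighbouring time points. All 7 general epithelial markers were well above background on every array, and none of the 6 fibroblast markers with a probe passed the filter. PTPRC, the defining leukocyte marker, was well above background on 0 or 1 of 26 arrays in each course, as were the endothelial markers KDR and TEK, whereas CD14, PECAM1 and VWF were well above background on 25 or 26 arrays in each course.

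Without treatment, the lineage factors FOXA1 and GATA6 were higher in PC9GRM2 than in PC9, whereas SFTPD, SCGB1A1, SFTPC and MUC1 were lower. NAPSA was higher. All 8 tested genes passed the test in untreated cells, against 68.1% of all genes tested, so the sizes say more than the count. FOXA1 in untreated PC9 had a lowest log2 signal of 9.01, a median of 10.47 and a highest of 10.92, and in untreated PC9GRM2 11.03, 11.85 and 13.01. The lowest PC9GRM2 array was above the highest PC9 array. The mean difference was 1.49 (SE 0.09), a 2.82-fold higher signal (adjusted p = 9e-15), positive at 26 of 26 time points. The 13.01 was the 11 h array that stood apart from its neighbours.

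GATA6, which works with NKX2-1 in lung endoderm, gave the same order. Its log2 signal ran from 7.19 through a median of 8.09 to 8.88 in untreated PC9 and from 8.96 through 9.39 to 10.22 in untreated PC9GRM2. These ranges did not overlap either, nor did those under gefitinib (7.83, 8.41 and 8.73 against 8.77, 9.38 and 10.57). The difference was 1.36 (SE 0.085) without treatment, a 2.56-fold higher signal (adjusted p = 2.24e-14).

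SFTPD, the surfactant collectin, showed the reverse. Untreated PC9 spanned 5.56 to 7.18 with a median of 6.57, and untreated PC9GRM2 spanned 4.98 to 5.83 with a median of 5.39. The highest PC9GRM2 arrays overlapped the lowest PC9 arrays, but PC9GRM2 was lower at 26 of 26 matched time points, by −1.18 (SE 0.098, adjusted p = 1.26e-11), or 2.26-fold. After a background correction by normexp this shrank to −0.32 and still passed. SCGB1A1, the club cell secretoglobin, was lower by −0.74 (SE 0.108, adjusted p = 6.08e-07), with 7.44, 7.85 and 8.32 in untreated PC9 against 6.12, 7.06 and 8.15 in untreated PC9GRM2. MUC1 was lower by −0.41 (SE 0.089, adjusted p = 0.000195) and the untreated ranges overlapped widely (7.59, 8.08 and 9.11 against 6.48, 7.89 and 8.69).

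The surfactant protein genes SFTPC and SFTPB gave values that depended on the probe or on few arrays. The SFTPC probe used was lower in PC9GRM2 by −0.47 (SE 0.137, adjusted p = 0.00361), with medians of 6.21 in untreated PC9 and 5.98 in untreated PC9GRM2. The other SFTPC probe, well above background on all 26 arrays of every course, gave a difference of 0.00. SFTPB was well above background on only 9 to 13 of 26 arrays per course. Its untreated medians were 4.15 in PC9 and 4.37 in PC9GRM2, and its difference of 0.41 (SE 0.168, adjusted p = 0.0307) was positive at 15 of 26 time points and did not pass when the array pair at 6, 13, 14, 19 or 20 h was left out (0.32 to 0.38, adjusted p = 0.0517 to 0.0592).

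NAPSA, the protease that processes the SFTPB precursor, had the sign of FOXA1 and GATA6. It ran from 6.56 through 7.20 to 7.97 in untreated PC9 and from 6.98 through 7.83 to 8.69 in untreated PC9GRM2, higher by 0.57 (SE 0.073, adjusted p = 6.25e-08) at 25 of 26 time points. Its other probe gave a smaller difference of 0.12. The other FOXA1 probe, spotted 10 times per array, gave 1.31, close to the 1.49 of the probe used.

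The same signs held in the treated courses. FOXA1 was higher in PC9GRM2 by 1.77 under gefitinib, 1.10 under EGF and 1.71 under EGF and gefitinib, and GATA6 by 1.03, 1.13 and 0.88, each at 26 of 26 time points. SFTPD was lower by −2.35, −0.78 and −2.41, and SCGB1A1 by −1.53, −0.80 and −1.40, in the same order of treatments. For both, the gap was wider in the courses with gefitinib. MUC1 was lower by −1.02, −0.53 and −0.87 and SFTPC by −1.06, −0.62 and −0.97, and NAPSA was higher by 0.89, 0.69 and 0.84. SFTPB gave 0.10, 0.22 and 0.19, none of which passed the test. After normexp the untreated differences were also smaller for GATA6 (0.90), NAPSA (0.24), MUC1 (−0.21), SCGB1A1 (−0.31) and SFTPC (−0.10), all still passing, and that of SFTPB was 0.01 and did not pass (adjusted p = 0.504). With scan day as a random block the untreated calls of MUC1, SFTPC and SFTPB were lost (adjusted p = 0.0514, 0.0852 and 0.306). In the main test 7 of 8 genes passed in each treated comparison, against 64.9%, 69.8% and 67.7% of all genes tested.

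**Figure D1:**
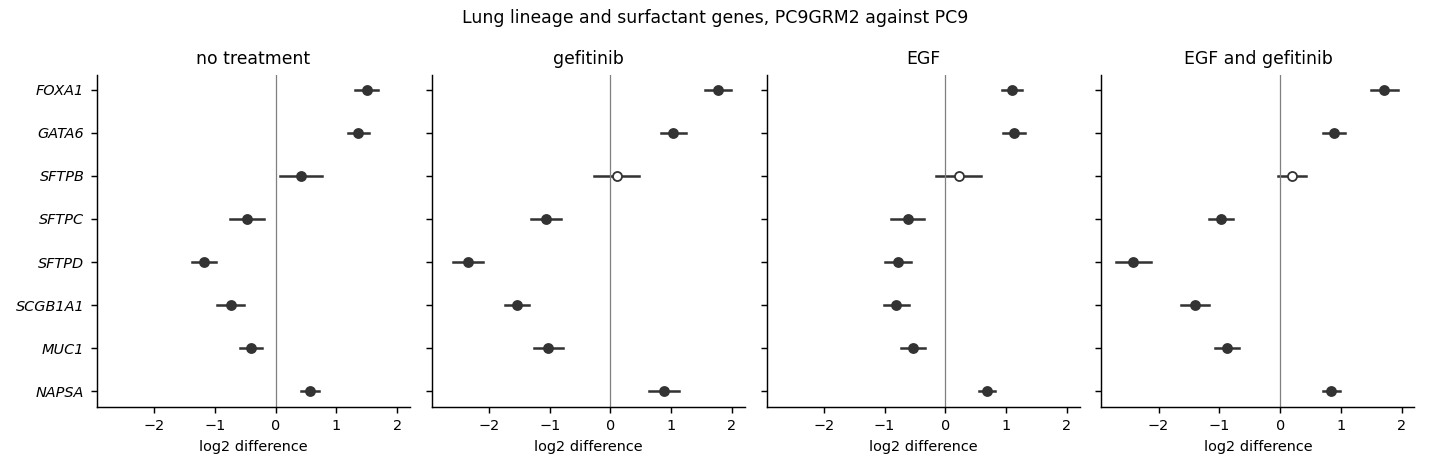
Difference between PC9GRM2 and PC9 on the log2 scale for each tested gene in each of the 4 treatments, as the mean over 26 matched time points with its 95% confidence interval; filled points passed the test. FOXA1, GATA6 and NAPSA lie above 0 in all 4 treatments, and SFTPD lies lowest, at −2.35 and −2.41 in the courses with gefitinib.

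Gefitinib raised 5 secretory genes in both lines, with the larger mean in PC9 for each of them except NAPSA. MUC1 rose by 2.19 (SE 0.274) in PC9 and by 1.57 (SE 0.198) in PC9GRM2, SFTPD by 2.03 and 0.86, SCGB1A1 by 1.07 and 0.27, SFTPC by 0.91 and 0.32 and NAPSA by 0.71 and 1.03. Of the 8 tested genes, 6 rose and none fell in PC9, against 35.1% of all genes tested that rose there and 72.3% that passed in either direction. In PC9GRM2, 6 rose as well, against 32.6% that rose and 66.7% that passed in either direction. Over the 8 genes the median difference was 0.81 in PC9 and 0.30 in PC9GRM2, where the medians over all genes tested were −0.02 and −0.01.

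MUC1 had the largest response in both lines. In PC9 its log2 signal was 7.59, 8.08 and 9.11 (lowest, median, highest) without treatment and 8.73, 10.51 and 12.27 with gefitinib. In PC9GRM2 it was 6.48, 7.89 and 8.69 without treatment and 8.21, 9.03 and 10.64 with gefitinib. The ranges overlapped through untreated arrays of 0 to 2 h in PC9 and of 0.5 to 2 h in PC9GRM2. Of the gefitinib arrays, those of 0 to 5 h in PC9 and of 0 to 6 h and 13 h in PC9GRM2 lay in the overlap. The mean rise was 4.56-fold in PC9 (adjusted p = 5.04e-08, positive at 24 of 26 time points) and 2.98-fold in PC9GRM2 (adjusted p = 6.29e-08, positive at 23 of 26). The matched differences of MUC1 followed each other closely in time, and with standard errors inflated for that autocorrelation neither mean passed (adjusted p = 0.0698 and 0.119).

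SFTPD was raised at every matched time point in PC9. Its gefitinib course ran from 6.61 through a median of 8.80 to 9.78, and only its arrays at 0 and 0.5 h fell within the untreated range. The rise was 2.03 (SE 0.129), 4.07-fold (adjusted p = 1.1e-13). In PC9GRM2 the gefitinib course ran from 5.57 through 6.24 to 7.22, a rise of 0.86 (SE 0.093), 1.81-fold (adjusted p = 4.89e-09), at 24 of 26 time points. Under gefitinib PC9GRM2 thus had an SFTPD signal whose median was below that of untreated PC9. After a background correction by normexp, the rises shrank to 1.03 and 0.18 and still passed.

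SCGB1A1 rose at 26 of 26 time points in PC9, from a median of 7.85 to one of 9.03 (1.07, SE 0.099, adjusted p = 2.15e-10). In PC9GRM2 the medians were 7.06 and 7.31 and the ranges overlapped almost entirely (0.27, SE 0.061, adjusted p = 0.000267), and the call was lost with time points unpaired (adjusted p = 0.116). NAPSA rose from a median of 7.20 to 8.02 in PC9 (0.71, SE 0.093, adjusted p = 1.04e-07) and from 7.83 to 8.85 in PC9GRM2 (1.03, SE 0.075, adjusted p = 2.46e-12). The single low NAPSA value under gefitinib in PC9, 5.98, came from the 16 h array that stood apart. The other NAPSA probe gave 0.63 and 0.74.

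SFTPC again depended on the probe. With the probe used it rose from a median of 6.21 to 7.39 in PC9 (0.91, SE 0.139, adjusted p = 1.29e-06) and from 5.98 to 6.28 in PC9GRM2 (0.32, SE 0.101, adjusted p = 0.00712), the latter a call lost with inflated standard errors (adjusted p = 0.229). With the other probe the differences were 0.11 and −0.03, neither of which passed. SFTPB gave 0.25 and −0.06 and did not pass in either line.

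The lineage factors moved little by comparison. GATA6 rose by 0.25 in PC9 (SE 0.066, adjusted p = 0.00135; 0.0627 with inflated standard errors) and gave −0.07 in PC9GRM2, which did not pass. FOXA1 gave 0.00 in PC9 (95% CI −0.18 to 0.18, adjusted p = 0.999) and rose by 0.27 in PC9GRM2 (SE 0.091, adjusted p = 0.0104), a call that was lost with time points unpaired or with standard errors inflated (adjusted p = 0.158 and 0.223).

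With EGF present, gefitinib again raised the 5 secretory genes in both lines. In PC9, SFTPD rose by 2.60, MUC1 by 2.34, SCGB1A1 by 1.21, NAPSA by 0.94 and SFTPC by 0.69, and FOXA1 fell by 0.13 (adjusted p = 0.0371). GATA6 gave 0.11 (adjusted p = 0.121) and did not pass, so that 6 of 8 genes passed, against 78.9% of all genes tested. In PC9GRM2, MUC1 rose by 2.00, NAPSA by 1.09, SFTPD by 0.96, SCGB1A1 by 0.62, FOXA1 by 0.48 and SFTPC by 0.34, and GATA6 fell by 0.15 (adjusted p = 0.0107), so that 7 of 8 passed, against 74.5%. With the other SFTPC probe the values were −0.08 in PC9 and −0.19 in PC9GRM2. With standard errors inflated for autocorrelation, 6 of these 13 calls were lost, those of MUC1, SCGB1A1 and FOXA1 in PC9 (adjusted p = 0.121, 0.0748 and 0.372) and of MUC1, SFTPC and FOXA1 in PC9GRM2 (adjusted p = 0.0782, 0.118 and 0.0529). With scan day as a random block, those of FOXA1 in PC9 and GATA6 in PC9GRM2 were lost (adjusted p = 0.236 and 0.0954). The fall of FOXA1 in PC9 rested on early arrays: it was −0.33 over the first 13 time points and 0.07 over the last 13, and it did not pass when any one array pair from 0 to 7 h, or at 9 h, was left out (−0.12 to −0.11, adjusted p = 0.0523 to 0.0705).

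The order of the 8 courses for SFTPD, by median log2 signal, was PC9 with EGF and gefitinib (8.98), PC9 with gefitinib (8.80), untreated PC9 (6.57), PC9GRM2 with EGF and gefitinib (6.27), PC9 with EGF (6.26), PC9GRM2 with gefitinib (6.24), untreated PC9GRM2 (5.39) and PC9GRM2 with EGF (5.30). The first pair did not differ beyond its spread (0.07, adjusted p = 0.701), nor did the last pair (−0.11, adjusted p = 0.357), and the medians between 6.24 and 6.27 lay closer together than the spread within any of those 3 courses, with no test of those across lines. For MUC1 the order began with PC9 with gefitinib (10.51) and PC9 with EGF and gefitinib (10.49), then PC9GRM2 with EGF and gefitinib (9.20) and with gefitinib (9.03), then untreated PC9 (8.08), PC9 with EGF (7.92), untreated PC9GRM2 (7.89) and PC9GRM2 with EGF (7.49). By median, every course with gefitinib was above every course without it. For FOXA1 the 4 PC9GRM2 courses (12.26, 12.24, 11.85 and 11.72) were above the 4 PC9 courses (10.61, 10.52, 10.47 and 10.41).

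**Figure D2:**
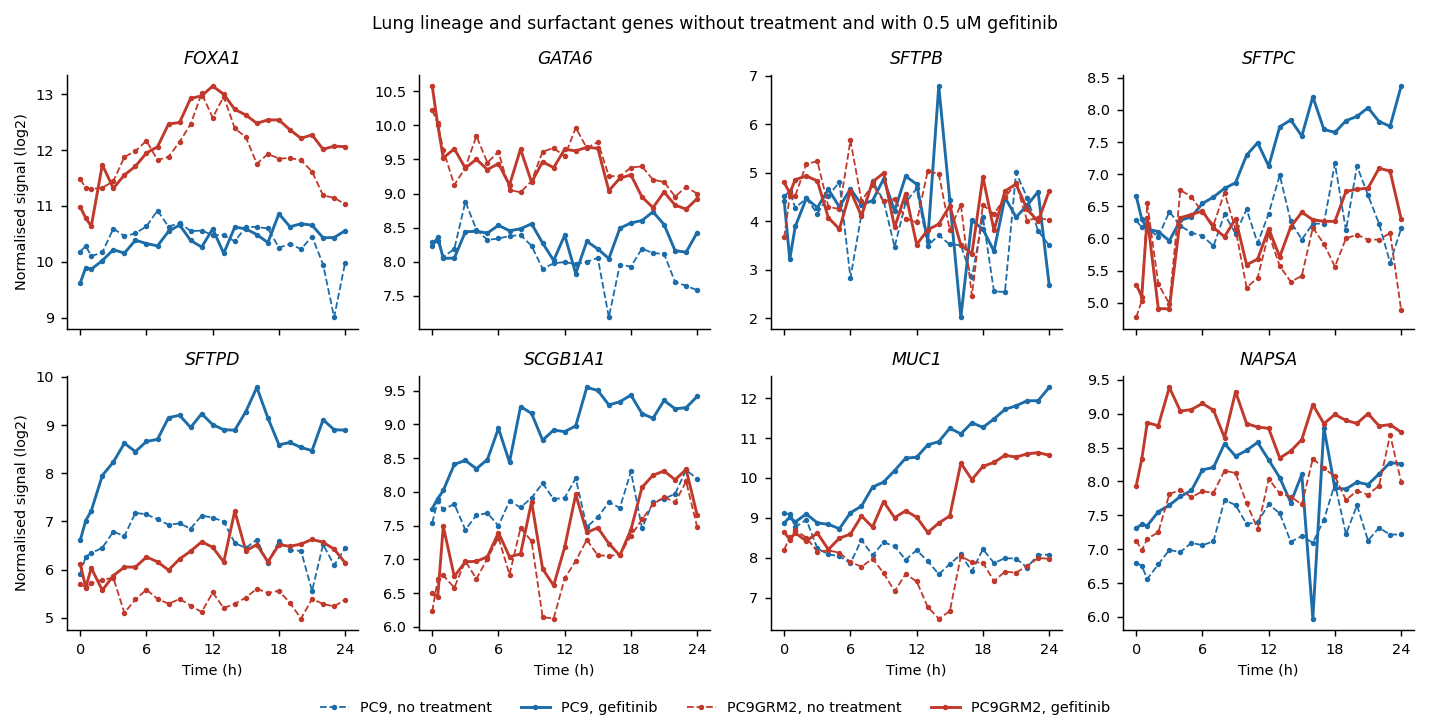
Normalised log2 signal of the 8 tested genes against time in hours in PC9 and PC9GRM2, without treatment and with gefitinib alone. In the courses with gefitinib alone MUC1 climbs towards 24 h, to 12.27 in PC9. SFTPD climbs there to a highest value of 9.78 in PC9 and 7.22 in PC9GRM2.

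The gefitinib responses were also followed over the 24 h. Matched differences were averaged over 0 to 6 h (8 time points), 7 to 15 h (9) and 16 to 24 h (9), called early, middle and late. In PC9, MUC1 went from 0.41 early through 2.27 to 3.68 late, a growth of 3.27 (SE 0.293), and in PC9GRM2 from 0.22 through 1.72 to 2.62, a growth of 2.40 (SE 0.185). SFTPD in PC9 was already 1.25 higher early and went on through 2.15 to 2.59. In PC9GRM2 it went from 0.36 through 1.08 to 1.08. Both genes grew over the course in both lines, and the difference in pace between the genes was not tested.

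SCGB1A1 followed the course of SFTPD in PC9 (0.63, 1.19 and 1.33), with a growth of 0.69 (SE 0.206, adjusted p = 0.00598), and showed no growth that passed in PC9GRM2 (0.16, 0.40 and 0.25). NAPSA gave 0.76, 0.84 and 0.55 in PC9, where the change from early to late did not pass (−0.21, limma, adjusted p = 0.457). That late mean included the 16 h gefitinib array, at 5.98 and not well above background. In PC9GRM2 NAPSA gave 1.35, 0.94 and 0.83, and the fall of 0.51 from early to late passed (SE 0.157, adjusted p = 0.0105) but did not after normexp (−0.23). SFTPC grew by 1.40 in PC9 and by 0.87 in PC9GRM2, but by 0.35 and 0.06, neither of which passed, with its other probe.

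FOXA1 changed sign within the course. Its response was −0.30 early, −0.13 in the middle and 0.41 late in PC9, and −0.28, 0.33 and 0.71 in PC9GRM2, growths of 0.71 (SE 0.167) and 0.98 (SE 0.128) that both passed. The mean of 0.00 over 24 h in PC9 was thus taken over a negative early part and a positive late part. GATA6 grew by 0.63 in PC9 (SE 0.108), from −0.04 to 0.59, and gave −0.22 in PC9GRM2, which did not pass. In all, 6 of 8 genes passed in PC9, against 51.9% of all genes tested, and 5 of 8 in PC9GRM2, against 39.9%.

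**Figure D3:**
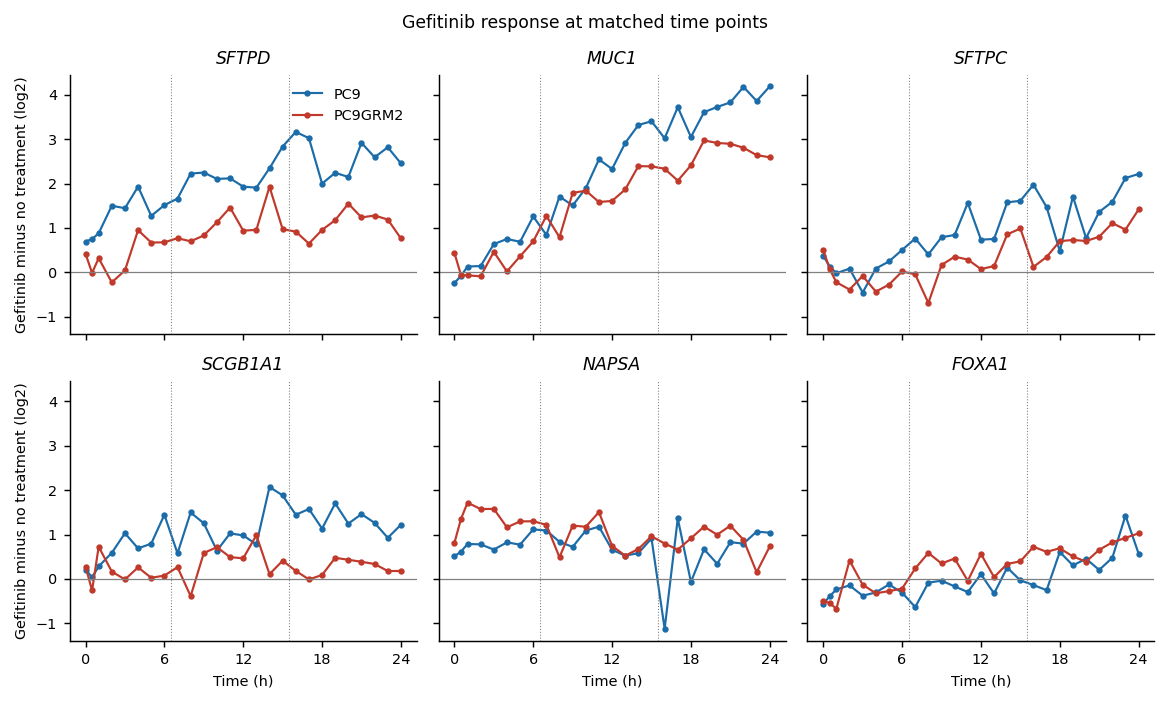
Gefitinib minus no treatment at matched time points, in log2 units, against time in hours for SFTPD, MUC1, SFTPC, SCGB1A1, NAPSA and FOXA1 in PC9 and PC9GRM2. Dotted vertical lines separate the early, middle and late windows. MUC1 reaches window means of 3.68 in PC9 and 2.62 in PC9GRM2 late in the course, and FOXA1 crosses 0.

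The courses themselves also changed with time, and a spline over 24 h passed for 50 of the 64 combinations of gene and course, where the share of all genes tested was 66.3%, 77.8%, 78.8% and 83.1% in PC9 (no treatment, gefitinib, EGF, both) and 67.2%, 63.7%, 74.9% and 67.7% in PC9GRM2. SFTPB passed in none of the 8. With scan day as a random block 37 of the 50 passed. MUC1 had the largest fitted ranges in PC9, 3.36 under gefitinib, with a trough at 3 h and a peak at 24 h, and 3.35 under EGF and gefitinib, followed by SFTPD under EGF and gefitinib (2.82). In PC9GRM2 the range of MUC1 was 2.67 under EGF and gefitinib and 2.27 under gefitinib. Between 15 and 16 h its signal stepped up in each PC9GRM2 course, treated or not. The step was from 6.67 to 8.04 untreated, 9.05 to 10.37 with gefitinib, 6.21 to 7.40 with EGF and 8.76 to 10.45 with both. The part of this shared step in the ranges was not tested. The median ranges over all genes under gefitinib were 1.11 in PC9 and 0.812 in PC9GRM2. Without gefitinib MUC1 instead had its fitted peak at 0 h in all 4 courses. FOXA1 in PC9GRM2 had fitted ranges of 2.11 under gefitinib and 2.28 under EGF and gefitinib, with peaks at 12 h, and 1.52 without treatment, also with a peak at 12 h. GATA6 in PC9GRM2 was highest at 0 h in all 4 courses, at 10.22 to 10.57.

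The response to gefitinib was compared between the lines directly, as the matched difference in PC9GRM2 minus that in PC9. Without EGF, 7 of 8 genes differed, against 34.0% of all genes tested. SFTPD had the largest gap, −1.17 (SE 0.108, adjusted p = 4.59e-09), with a weaker response in PC9GRM2 at 26 of 26 time points, so the drug raised it 2.25-fold less there. SCGB1A1 gave −0.79 (SE 0.12, adjusted p = 8.54e-06), MUC1 −0.61 (SE 0.115, adjusted p = 0.000127), SFTPC −0.59 (SE 0.098, adjusted p = 2.75e-05) and GATA6 −0.32 (SE 0.094, adjusted p = 0.00873). The response was thus weaker in PC9GRM2 for SFTPD, SCGB1A1, MUC1 and GATA6, and for SFTPC with the probe used, while its other probe gave −0.13 and did not pass. FOXA1 and NAPSA went the other way, by 0.27 (adjusted p = 0.00784) and 0.32 (adjusted p = 0.0291).

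With EGF the gaps were −1.63 for SFTPD, −0.59 for SCGB1A1, −0.35 for SFTPC, −0.34 for MUC1, −0.25 for GATA6 and 0.61 for FOXA1, and 6 of 8 passed, against 48.7% of all genes tested. NAPSA gave 0.16 (adjusted p = 0.17), and 0.22 (adjusted p = 0.0136) without the 0.5 h arrays. Of the 13 calls over both settings, 5 held with time points 3 h apart and 7 with scan day as a random block. The gap of MUC1 was among those lost in both, while those of SFTPD and SCGB1A1 were not. After normexp the gap of SFTPD was −0.85 without EGF and −1.06 with EGF.

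EGF had small effects on these genes, and those that passed were in cells without gefitinib. In PC9, 5 of 8 genes passed, against 25.6% of all genes tested. GATA6 rose by 0.31 (SE 0.059, adjusted p = 0.000214, positive at 25 of 26 time points) and FOXA1 by 0.24 (SE 0.052, adjusted p = 0.000892). SFTPD fell by 0.50 (SE 0.098, adjusted p = 0.000298), NAPSA by 0.15 (adjusted p = 0.012) and MUC1 by 0.14 (adjusted p = 0.0355). The largest was thus under 1 log2 unit. In PC9GRM2, MUC1 alone passed, with a fall of 0.27 (SE 0.049, adjusted p = 0.000541), against 9.13% of all genes tested, and 3 of 8 had an unadjusted p under 0.05.

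The EGF response of FOXA1 differed between the lines (−0.39, SE 0.076, adjusted p = 0.00546), with 0.24 in PC9 and −0.15 in PC9GRM2. It was the only one of 8 to pass, against 1.33% of all genes tested. That of SFTPD gave 0.40 (adjusted p = 0.0699), and passed when the arrays at 0, 17 or 21 h were left out (0.43 to 0.44, adjusted p = 0.0283 to 0.048). Without the pairing of time points, 1 of the 6 EGF calls in the 2 lines remained by count. That of MUC1 in PC9 was also lost without any of 9 of the time points from 7 to 21 h (−0.14 to −0.12, adjusted p = 0.0525 to 0.0627).

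Under gefitinib, EGF moved none of the 8 genes past the threshold of limma in either line, against 0.0452% of all genes tested in PC9 and 3.21% in PC9GRM2. At an unadjusted p under 0.05 there were 2 of 8 in each line by limma and by the paired t-test, FOXA1 and GATA6 in PC9 and MUC1 and SCGB1A1 in PC9GRM2. The intervals were narrow for MUC1 in PC9 (0.01, 95% CI −0.06 to 0.08) and for SFTPD in PC9GRM2 (0.00, 95% CI −0.13 to 0.14). No EGF response changed between early and late in either line by limma (2 of 8 at an unadjusted p under 0.05 in each), against 2.71% and 0.0528% of all genes tested.

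**Figure D4:**
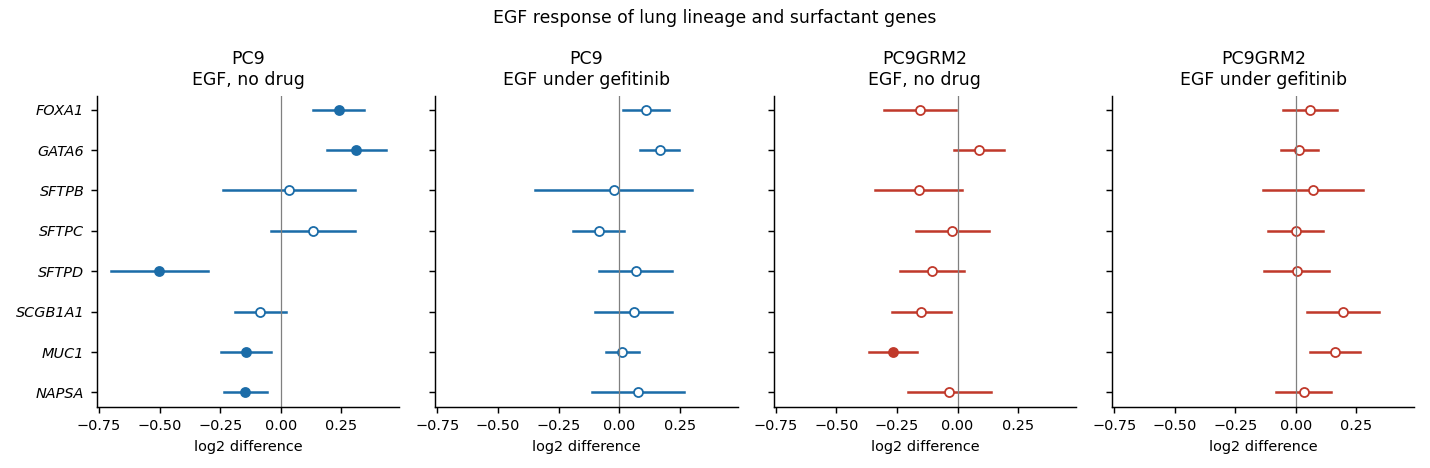
EGF effect on the log2 scale for each tested gene in PC9 and PC9GRM2, without gefitinib and under it, as the mean over 26 matched time points with its 95% confidence interval; filled points passed the test. GATA6 at 0.31 and SFTPD at −0.50 in PC9 without gefitinib are the largest that passed, and no point under gefitinib is filled.

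NKX2-1, the factor that defines the lung lineage, was measured by a pair of probes that differed in brightness. The probe of largest variance was well above background on 0 to 3 of 26 arrays per course, with medians of 2.00 to 2.62, and it was left out of the tests. The other probe was well above background on 14 to 26 arrays per course. Its course means were 5.03 in untreated PC9, 4.49 with gefitinib, 5.05 with EGF and 4.32 with both, and in PC9GRM2 5.67, 5.22, 5.85 and 5.12. With that probe, NKX2-1 was higher in PC9GRM2 by 0.63 without treatment (adjusted p = 0.000335) and fell with gefitinib. The fall was 0.54 in PC9 (adjusted p = 0.00944), and in PC9GRM2 it was 0.46 (adjusted p = 7.22e-06). The line difference also passed in the treated courses, at 0.77, 0.80 and 0.79 under gefitinib, EGF and both. The comparisons with the PC9GRM2 gefitinib course rest on 25 matched time points, since 1 spot of that course was flagged as an outlier. With the mean of both probes the untreated line difference was 0.15 (adjusted p = 0.429) and the gefitinib responses −0.25 and −0.15 (adjusted p = 0.0985 and 0.308), none of which passed. No difference between the gefitinib responses of the lines passed (adjusted p = 0.573 without EGF and 0.982 with EGF).

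FOXA2, the second forkhead factor, was dim with each of its 3 probes, well above background on at most 12 of 26 arrays of a course. The probe of largest variance had medians of 3.04 to 3.93. Tested without the filter, it gave a gefitinib response of 0.46 in PC9GRM2 (adjusted p = 0.00807), while its other probes gave −0.17 and 0.27, and 0.07 in PC9. No direction is given for FOXA2.

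**Figure D5:**
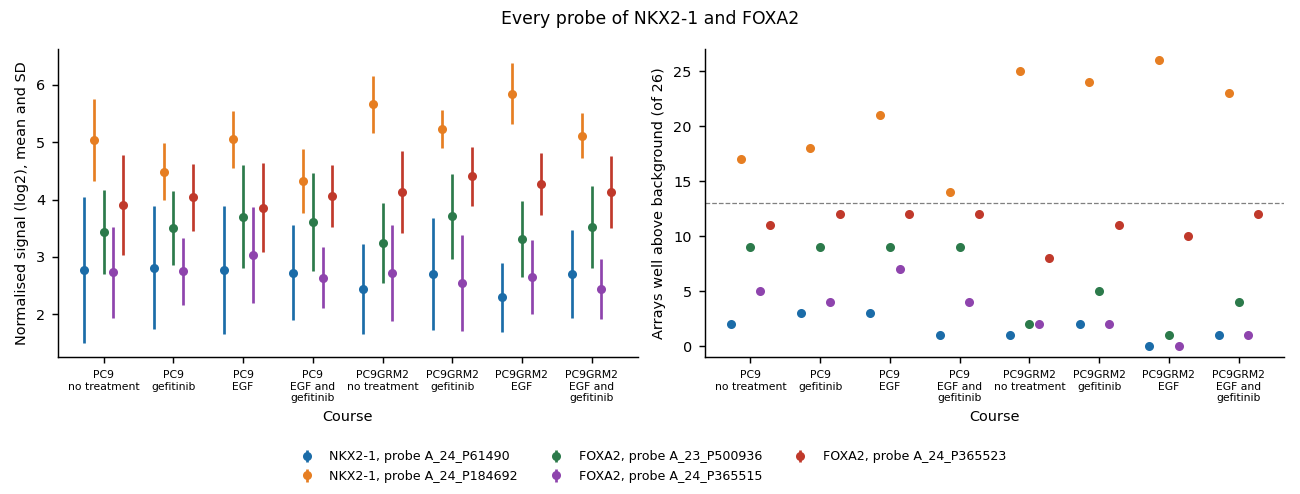
Every probe of NKX2-1 and FOXA2 in the 8 courses: on one side the mean normalised log2 signal with its SD over 26 arrays, on the other the number of the 26 arrays on which the probe was well above background, with a dashed line at the 13 needed for testing. Only the second NKX2-1 probe, at 14 to 26 arrays, lies above the line in every course.

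Companion genes of the same lineages were described by counts from lists of known markers. These counts are read against the 35.1% of all genes tested that rose with gefitinib in PC9 and 32.6% in PC9GRM2, and the 72.3% and 66.7% that passed in either direction. With gefitinib, 4 of 6 tested membrane and secreted mucins rose and none fell in each line, with medians of 1.51 in PC9 and 1.23 in PC9GRM2. MUC20 rose by 2.18 and 2.49, and MUC16, the mucin known as the CA125 antigen, by 1.67 and 1.28. MUC15 was well above background on 25 of 26 gefitinib arrays and on none of the untreated arrays in PC9, where it was at least 2.43-fold higher (adjusted p = 3.71e-14).

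Of 8 airway secretory genes tested, 4 rose and 2 fell in PC9 and 5 rose and 1 fell in PC9GRM2. CYP4B1, a cytochrome P450 of club cells, rose by 4.24 in PC9 and 3.09 in PC9GRM2, and BPIFB1, a secreted airway defence protein, by 0.97 and 1.48. Of 7 alveolar type 2 genes, 2 rose and 1 fell in PC9 and 2 rose and 3 fell in PC9GRM2. PGC rose by 1.31 and 1.06 and ABCA3, the lipid transporter of lamellar bodies, by 0.48 and 0.41, while DRAM1 fell by 0.23 and by 0.64. In PC9GRM2 DRAM1 was well above background on 12 of 26 untreated and 4 of 26 gefitinib arrays. The alveolar type 2 list as a whole thus showed no shared direction, with medians of 0.06 and 0.15.

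Among 17 tested lung lineage regulators, 9 rose and 7 fell with gefitinib in each line. ELF3, an epithelial ETS factor, rose by 3.08 in PC9 and 2.30 in PC9GRM2, SOX2 by 3.85 and 1.79, and ETV5, an ETS factor downstream of receptor tyrosine kinases, fell by 4.80 and by 1.12. In PC9 with gefitinib ETV5 was well above background on 11 of 26 arrays, and untreated SOX2 on 18 of 26 in PC9 and 12 of 26 in PC9GRM2, so these values are partly taken against a signal near background. Of 5 basal and squamous genes tested, 2 rose and 3 fell in PC9 and 1 rose and 3 fell in PC9GRM2. KRT6A and TP63 fell, by 2.24 and 2.15 in PC9 and by 1.40 and 0.65 in PC9GRM2. KRT14 of the same list rose by 1.11 in PC9 (limma, adjusted p = 3.05e-05). With EGF present, gefitinib raised KRT14 by 0.87 in PC9 and by 0.69 in PC9GRM2. Alveolar type 1 markers rose in 5 of 6 cases in PC9 and 4 of 6 in PC9GRM2, with medians of 0.72 and 0.59.

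Between the untreated lines, 6 of 8 tested gut and gastric lineage genes were higher in PC9GRM2 and none was lower. Their median was 0.74, where that of all genes was −0.05. Of all genes tested, 68.1% passed in either direction, and the count of 6 of 8 was near that share. The shares of all genes that were higher or lower were not counted, so the counts by direction in this paragraph have no such reference. CTSE of this list was well above background on only 5 untreated PC9 arrays. The trefoil peptides TFF1 and TFF2 were higher by 3.33 and 1.94 and the factor ONECUT2 by 2.70. Basal and squamous genes were lower in 4 of 5 cases, with KRT14 at −2.10, TP63 at −1.94 and KRT6A at −1.76. Of 8 airway secretory genes 1 was higher and 5 were lower, CYP4B1 by −2.97, the same sign as SCGB1A1. Among these 8, CYP2F1 was well above background on 1 untreated PC9 array and 0 untreated PC9GRM2 arrays, too few to read its direction.

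Markers of other cell types were examined beside these results. Of the leukocyte list, 5 of 6 genes were tested. The log2 of its summed signal lay between 7.15 and 8.21 in untreated PC9 and 7.49 and 8.38 in PC9 with gefitinib. In PC9GRM2 it lay between 7.82 and 9.06 untreated and 7.88 and 9.01 with gefitinib. Of the endothelial list, 2 of 5 were tested, PECAM1 and VWF. With gefitinib VWF rose by 1.76 in PC9 and 1.08 in PC9GRM2. PECAM1 gave −0.17 in PC9 (limma, adjusted p = 0.00242). With EGF present, gefitinib gave PECAM1 0.40 in PC9 and raised it by 0.98 in PC9GRM2 (limma, adjusted p = 0.202 and 1.57e-05). Under gefitinib alone the line difference of PECAM1 was −0.74. Between the untreated lines PECAM1 and VWF were lower in PC9GRM2, by −1.50 and −1.01, and LYZ of the leukocyte list was higher by 2.75, well above background on 25 of 26 arrays against 3 of 26 in PC9. The log2 of the summed signal of the endothelial list lay between 9.51 and 10.76, 9.71 and 10.77, 8.23 and 9.02, and 7.76 and 10.20, in the order given for the leukocyte list. The part of these lists in the results was not tested.

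The 8 genes were also set against each other over all arrays once each line's mean was subtracted. Pearson's r was 0.80 between MUC1 and SFTPD, 0.78 between MUC1 and SCGB1A1 and 0.73 between SCGB1A1 and SFTPD. GATA6 had r between −0.21 and 0.16 with the others. These are descriptions over arrays that share time points and treatments. Most like SFTPD were NOXO1 (r = 0.938) and SLC25A29 (r = 0.933), and most like MUC1 were TPPP3 (r = 0.939) and DRC3 (r = 0.938). RRAS (r = 0.856) was most like SCGB1A1, TSC22D4 (r = 0.833) most like NAPSA, PLS1 (r = 0.743) most like FOXA1 and RPL22 (r = 0.614) most like GATA6. Within single courses the likeness was weaker in places, with a lowest r of 0.52 for NOXO1, 0.05 for SLC25A29, 0.04 for TPPP3, 0.43 for DRC3, 0.32 for RRAS, −0.15 for TSC22D4, 0.40 for PLS1 and 0.13 for RPL22.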

How the data were processed

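RNA from each sample was hybridised to a one-colour Agilent array by the authors, who deposited 1 scanner file per sample with the processed intensity of each feature, its median and background signals and its flags. The file headers name Feature Extraction 10.5.1.1. The authors also deposited a table of normalised values, used as an alternative. Depth of counting does not apply, and 1 array per time point limits the precision.

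Processed signals of the 45015 features were quantile-normalised over non-control features, raised to a floor of 1 and put on the log2 scale. Outlier spots (0.0793% of tested values) were left out and spots of a probe were averaged. Accessions matched 24794 of 41000 probes to RefSeq symbols. As in the study's methods, the probe of largest variance stood for a gene (6040 genes had over 1 probe). Matched differences were tested with limma 3.58.1 in R 4.3.3 (two-sided, Benjamini-Hochberg over 13263 genes, threshold 0.05). Time courses were fitted with natural splines of 4 degrees of freedom, and late (16 to 24 h) was set against early (0 to 6 h). Each test was checked on simulated data with independent noise at each time point. In the real matched differences the median autocorrelation between neighbouring time points ran from −0.06 to 0.51 over the comparisons. The simulations therefore cannot show how the p-values hold under such autocorrelation. No replicate cultures exist.

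Groups were taken from the labels. Time points paired the samples, since the 4 treatments of a time point shared a slide. Deviations of same-time arrays had a median r of 0.290 (PC9) and 0.359 (PC9GRM2) between gefitinib and untreated courses, 0.684 and 0.728 between EGF and untreated courses, and 0.00118 to 0.245 between the lines.

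The genes and companion lists were chosen with earlier results of these data known. All 10 genes are named with every probe, and also up to 3 passing genes of a list with the largest difference, with exceptions where a list is only counted, and the most like genes by correlation. Alternatives were another scaling (75th percentile), normexp background correction with offset 50, the deposited table, other probe rules, filters and floors, unpaired tests, the paired t-test of the study's methods, a one-sided test, wider spacing, inflated standard errors, scan day as a block, each part of the course and leaving out each time point. The files hold no mean signals, so normexp used the median signals. Protein sequences were not used here.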

Additional observations from a re-analysis of the deposited data

Results flagged for a closer look

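Results for which the responses of the 2 lines differed by a direct test were taken up for a closer look. Each value is the response of PC9GRM2 minus that of PC9 in log2 units, as the mean over 26 matched time points. For gefitinib without EGF these were −1.17 for SFTPD, −0.79 for SCGB1A1, −0.61 for MUC1, −0.59 for SFTPC, −0.32 for GATA6, 0.27 for FOXA1 and 0.32 for NAPSA. For gefitinib with EGF they were −1.63 for SFTPD, −0.59 for SCGB1A1, −0.35 for SFTPC, −0.34 for MUC1, −0.25 for GATA6 and 0.61 for FOXA1. For EGF without gefitinib the response of FOXA1 differed by −0.39.

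The gap of SFTPD was −0.97 over the first 13 time points and −1.37 over the last 13, and that of GATA6 −0.02 and −0.63. That of SFTPC was −0.13 without EGF and −0.11 with EGF by its other probe, and did not pass. The part of the scan periods, which differ between the lines, cannot be told apart from that of the lines.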

How the results depend on the processing

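Of the values recomputed under other settings, 2670 kept their side of the threshold, and those of them that passed in the main test also kept their direction. A further 141 lost and 33 gained a call, and 9 that passed in the main test reversed. The direction of values that did not pass in the main test was not counted. Reversed values were those of SFTPC with its other probe (line difference 0.00054 untreated and 0.052 under EGF, gefitinib in PC9GRM2 −0.025, gefitinib with EGF −0.081 in PC9 and −0.19 in PC9GRM2) and, over the first 13 time points, SFTPC (gefitinib −0.055 and gefitinib with EGF −0.069 in PC9GRM2) and FOXA1 (gefitinib −0.049 in PC9GRM2), and FOXA1 over the last 13 (gefitinib with EGF 0.072 in PC9). The cause was not tested. Of 29 line differences that passed, a one-sided test for higher signal in PC9GRM2 called 13, by its construction. Inflated standard errors took the gefitinib calls from 12 to 7, and with EGF from 13 to 7. The 6 EGF calls became 1 without the pairing of time points, 1 with time points 3 h apart and 3 over the first 13. Under gefitinib the 0 EGF calls became 1 with normexp, 1 over the last 13 and 2 with outlying points replaced by a spline. The 13 differences of gefitinib response became 5 with time points 3 h apart, 7 with scan day as a block and 6 over the first 13, and the 1 difference of EGF response became 2, 0, 0, 0 and 3 with normexp, wider spacing, the first 13, the last 13 and the spline. Scan day as a block also left 26 of 29 line differences, 11 of 13 gefitinib calls with EGF and 37 of 50 changes over time. Leaving out each time point gave 28 to 29 line differences, 12 gefitinib calls, 12 to 14 with EGF, 5 to 6 EGF calls, 0 to 1 under gefitinib, 13 to 14 differences of gefitinib response and 1 to 2 of EGF response. Normexp moved 87 passing values by over 1.5 times, mostly towards 0 (line difference of SFTPD −1.18 to −0.32). No scaling moved the median of all genes by over 0.1.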
